A study of Mus musculus with 12 samples.

Results

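Striatal RNA levels of 40 genes for enzymes and droplet proteins of sphingolipid, phospholipid and neutral lipid metabolism were followed across 4 groups of mice. The genes were chosen by name, as a list of enzymes found by symbol in all 12 count tables. The list was drawn up with earlier results of these data known, so shares of the 40 set beside shares of all genes are descriptions only. All 40 passed the filter on low counts, among 21309 genes that did so of 55487 listed. The study measured poly(A)-selected striatal RNA of 12 mice, 3 in each group, so each library is 1 animal. WT animals were C57BL/6J controls and HD animals were heterozygous for the neo-deleted zQ175 knock-in allele, which places an expanded CAG repeat in the mouse Htt gene. cGAS-KO animals lacked cGAS, the sensor of cytosolic DNA that signals through STING, and cGAS-KO;HD animals, called double mutants here, carried both mutations. The stated question was whether cGAS deletion modifies the disease of the knock-in mice, and the study also profiled lipids. The labels give no age, sex or litter and do not say which part of Cgas is deleted, and whole striatum mixes all cell types of the tissue.

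Sphingolipids are built from ceramide. Serine palmitoyltransferase joins serine and palmitate, ceramide synthases add an acyl chain whose length depends on the synthase, and a desaturase completes ceramide. Ceramide is turned into sphingomyelin or glycosphingolipids, released again by sphingomyelinases, or cut to sphingosine, which sphingosine kinases phosphorylate to a signalling lipid. Glycerophospholipids share phosphatidic acid as a precursor with triglycerides. Phospholipases cut them to free fatty acids, lysophospholipids or phosphatidic acid, and acyltransferases rebuild them in the remodelling cycle. In brain these lipids make up myelin and synaptic membranes, and arachidonic acid freed from phospholipids feeds eicosanoid synthesis.

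The tables hold between 59195327 and 72765623 counts per library. Htt, the targeted gene, was lower in both knock-in groups, at 131 to 144 CPM (read counts scaled to a common library size) in HD and 126 to 142 in the double mutants, against 169 to 179 in WT and 155 to 179 in cGAS-KO. Cgas was rare, at 1.32 to 1.56 CPM in WT and 0.572 to 0.882 in cGAS-KO, a difference that did not pass the test (edgeR adjusted p = 0.919). In the double mutants it measured 1.15, 1.15 and 0.798 CPM, which overlapped 1.13, 1.07 and 1.26 in HD (log2 change -0.16 ± 0.23, edgeR adjusted p = 0.856). Counts over the whole of Cgas thus gave no check of the double-mutant label, and without the deleted part being named they are a weak check of cGAS-KO. WT replicate 1 and cGAS-KO replicate 3 stood farthest from the other libraries of their groups, with a root mean square log2 distance of 0.322 and 0.391 against 0.164 to 0.283 for the other 10, and counts of calls and members' changes were also computed without them. cGAS-KO replicate 3 also had the fewest genes detected (26827) and the highest share of mitochondrial counts, 11.5%, followed by double-mutant replicate 1 at 9.03%, against 5.3% to 7.09% in the other 10. Cortical neuron markers (10 genes, summed CPM) were lowest among WT in replicate 1, at 265 against 870 and 1020, and highest among cGAS-KO in replicate 3, at 1450 against 496 and 324. Xist was high in 1 WT, 2 HD, 1 cGAS-KO and 2 double-mutant libraries. The WT and cGAS-KO libraries with high Xist were the same WT replicate 1 and cGAS-KO replicate 3, so without them no library lacking the knock-in allele has high Xist, and sex cannot be told apart there from the other differences. The part of this imbalance in the results was not tested.

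Over all 12 libraries, 12 of the 40 genes differed between animals with and without the knock-in allele, 7 higher and 5 lower, and none passed the test for cGAS loss. Pla2g4a, the cytosolic phospholipase that frees arachidonic acid, had the largest change, a rise of 2.15-fold. Pld1, Plin3, Lpcat2, Cers2, Sptlc2 and Sphk2 rose by 1.18-fold to 1.44-fold. Smpd3, Dgat2, Lpcat4, Cers1 and Fads1 were reduced to between 0.579 and 0.819 of the level without the allele. These 12 calls are for the knock-in effect averaged over the pairs with and without cGAS. They come from the quasi-likelihood test of edgeR, adjusted by Benjamini-Hochberg over all 21309 genes (the edgeR adjusted p, threshold 0.05), and the calls below are of this test unless another is named. Of all genes 13.2% were called in that effect, 5.59% higher and 7.63% lower.

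In HD against WT alone, 3 of the 40 rose (Pla2g4a, Pld1, Sptlc2) and 3 fell (Smpd3, Dgat2, Lpcat4), which is 15% of them against 4.1% of all genes (1.43% higher and 2.67% lower). In the double mutants against cGAS-KO, 4 rose (Pla2g4a, Pld1, Plin3, Lpcat2) and 3 fell (Smpd3, Dgat2, Fads1), against 3.96% of all genes (1.44% higher and 2.52% lower). The median log2 change of the 40 was 0.09 in the first pair and 0.08 in the second, beside 0.01 and 0.00 over all genes. Without the doubted libraries WT replicate 1 and cGAS-KO replicate 3, a setting chosen after seeing the data, 10 rose and 6 fell in HD against WT, 9 rose and 4 fell in the double mutants against cGAS-KO, and 12 rose and 7 fell in the averaged effect. Calls over all genes also grew there, from 873 to 3589, from 843 to 1805 and from 2816 to 4595 in the same order. That setting leaves high Xist in 4 of the 6 knock-in libraries and in none of the other 4. Of the 28 genes not called in any comparison, 9 passed with another tool, in a fit of the compared groups alone or without 1 library, and they are named with their roles below.

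**Figure D1:**
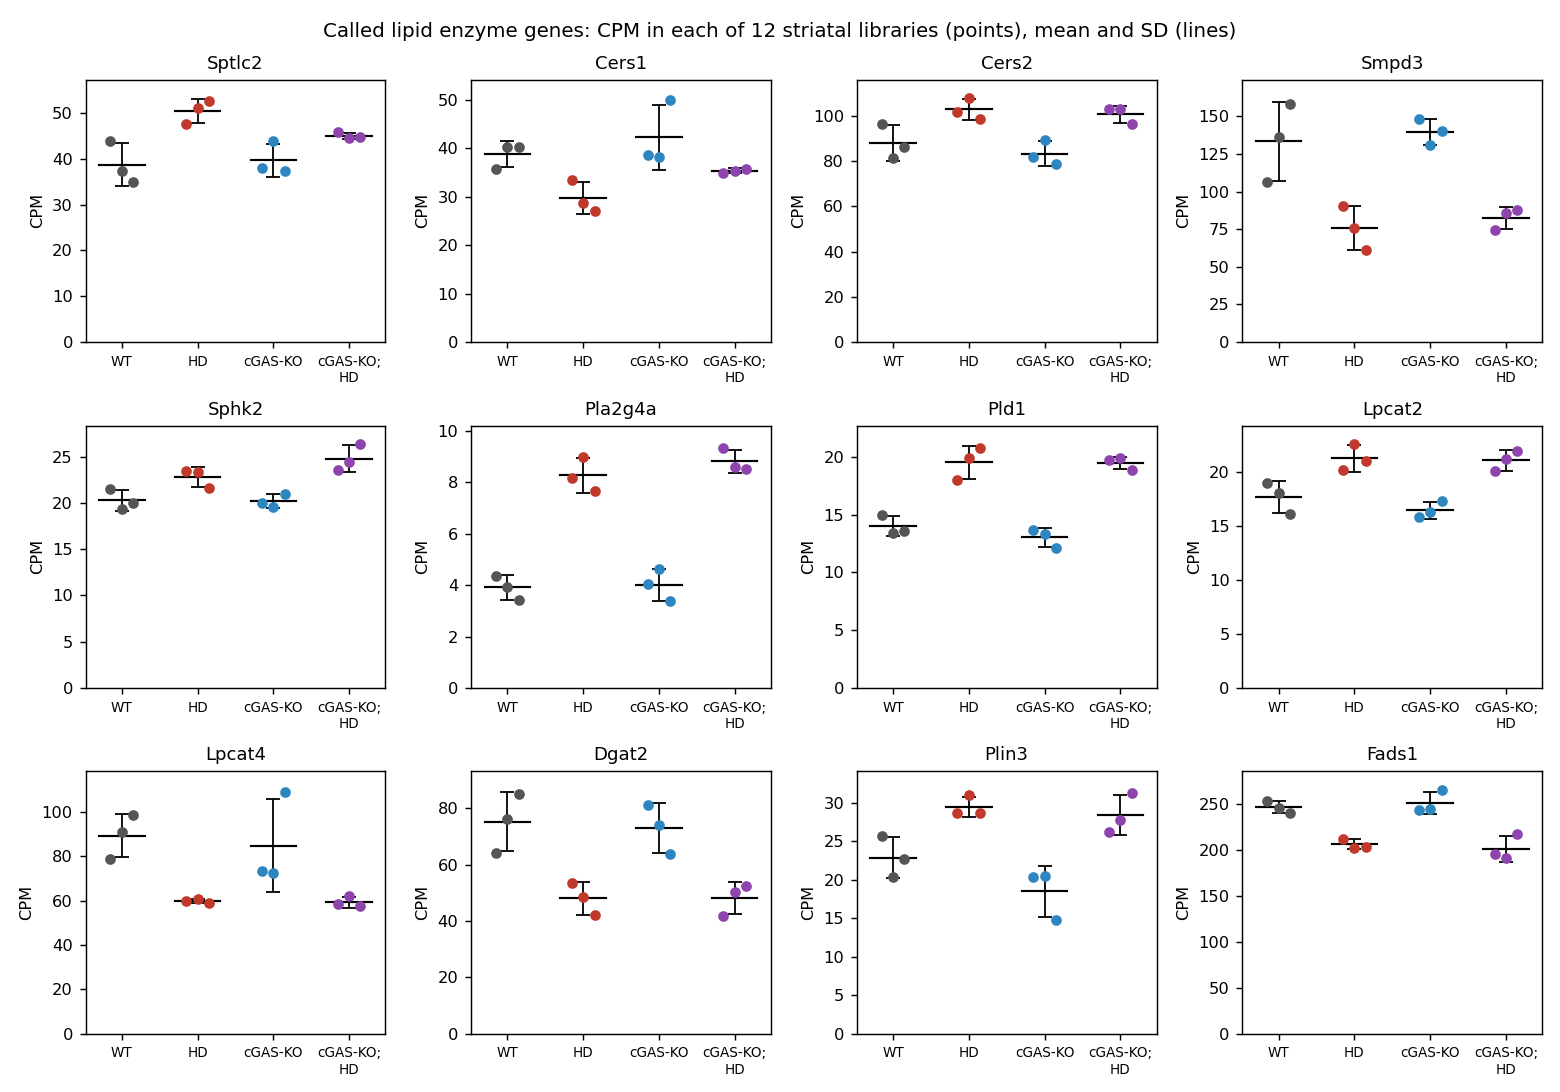
CPM (y axes, from 0) of the 12 called genes in each library (points) of the 4 groups (x axes), with the mean and SD of 3 libraries as lines. Pla2g4a lies between 3.39 and 4.64 CPM in the 6 libraries without the knock-in allele and between 7.65 and 9.34 CPM in the 6 with it.

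Genes of ceramide synthesis came first in the pathway. Of its 9 members, Sptlc2 and Cers2 rose, Cers1 fell, and 6 (Sptlc1, Kdsr, Cers4, Cers5, Cers6 and Degs1) were not called. Sptlc2, a catalytic subunit of serine palmitoyltransferase (chr12:87305058-87388355, minus strand, GRCm38), measured 43.9, 37.3 and 34.9 CPM in WT, 47.5, 51.1 and 52.6 in HD, 37.9, 43.8 and 37.3 in cGAS-KO and 45.8, 44.5 and 44.7 in the double mutants. Every knock-in library was above every other one, by a narrow margin between double-mutant replicate 2 and WT replicate 1. The log2 change was 0.38 ± 0.09 (SE) in HD against WT (edgeR adjusted p = 0.0383), 0.18 ± 0.09 in the double mutants against cGAS-KO (edgeR adjusted p = 0.336) and 0.28 ± 0.07 on average (edgeR adjusted p = 0.013). The HD call was lost in 9 of the 12 fits that left out 1 library, and remained only without WT replicate 1, cGAS-KO replicate 2 or cGAS-KO replicate 3.

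The ceramide synthases moved in different directions. Cers1, the neuronal synthase that makes C18 ceramide, measured 35.8, 40.3 and 40.3 CPM in WT, 33.4, 28.8 and 27.1 in HD, 38.6, 38.2 and 49.9 in cGAS-KO and 34.8, 35.4 and 35.8 in the double mutants. Cers2, which makes very long chain ceramides and is abundant in oligodendrocytes, measured 96.6, 81.4 and 86.3 CPM in WT, 102, 108 and 98.9 in HD, 82.0, 89.4 and 78.7 in cGAS-KO and 103, 103 and 96.3 in the double mutants. All 6 knock-in libraries were below the other 6 for Cers1, with double-mutant replicate 3 under WT replicate 1 by less than the digits shown, while for Cers2 WT replicate 1 lay just above double-mutant replicate 3. On average Cers1 changed by -0.32 ± 0.08 on the log2 scale and Cers2 by 0.25 ± 0.06 (edgeR adjusted p = 0.0165 and 0.0101). Neither passed in a single pair of groups, at edgeR adjusted p = 0.0745 and 0.133 in HD against WT, and 0.242 and 0.0715 in the double mutants against cGAS-KO. By DESeq2's Wald test Cers1 passed in the first (adjusted p = 0.0205) and Cers2 in the second (adjusted p = 0.0324). Cers1 also passed in HD against WT with the stricter filter, in a fit of the compared groups alone, and without WT replicate 1, HD replicate 1 or cGAS-KO replicate 3.

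Cers1 shares 42.5% of its exon bases with Gdf1 on the same strand, and Gdf1 had 0 counts in all 12 libraries. No source used here says whether reads of the shared bases were counted for Cers1 or dropped. If dropped, its level per kilobase is too low, and its place in the order below is uncertain. Per kilobase of exon, the WT levels were 24 ± 2.12 CPM for Cers2, 12.2 ± 0.82 for Cers1, 9.44 ± 0.353 for Cers5, 6.79 ± 0.655 for Cers4 and 6.49 ± 0.661 for Cers6 (mean ± SD, n = 3). Cers4 and Cers6 differed by less than their spread, and the other neighbours in that order by more. Cers6, a synthase of C16 ceramide, measured 50.9, 60.0 and 61.8 CPM in WT and 52.1, 43.3 and 40.8 in HD, and the averaged change of -0.26 ± 0.09 did not pass (edgeR adjusted p = 0.0734). It passed by DESeq2's Wald test (adjusted p = 0.0386) and without WT replicate 1, HD replicate 1 or cGAS-KO replicate 2, and without cGAS-KO replicate 3 Cers6 passed in HD against WT at -0.34 (edgeR adjusted p = 0.0364). Degs1, the desaturase that completes ceramide, stood highest of the 9 per kilobase, at 34.2 ± 3.18 CPM in WT, and passed in the averaged effect without cGAS-KO replicate 3 (0.26, edgeR adjusted p = 0.0214).

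Upstream sequence of Sptlc2, which rose, and Cers1, which fell, is given for comparison with the phospholipase genes further on. The sequences are from RefSeq on build GRCm38.p6, 250 bases before the most upstream listed start, written 5′ to 3′ on the gene's strand (chr12:87388356-87388605, minus strand, and chr8:70315525-70315774, plus strand). Capitals mark matches to 5 short motifs searched on both strands: the E-box CACGTG, the CAAT box CCAAT, the GC box GGGCGG, the cAMP response site TGACG and the TATA box TATAAA. Matches may overlap each other, as those of the E-box and the cAMP response site can.
Sptlc2: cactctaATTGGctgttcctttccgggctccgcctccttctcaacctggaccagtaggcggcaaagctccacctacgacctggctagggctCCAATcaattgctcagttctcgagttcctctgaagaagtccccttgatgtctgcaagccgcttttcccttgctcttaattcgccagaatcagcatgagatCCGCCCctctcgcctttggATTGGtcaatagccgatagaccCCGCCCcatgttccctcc
Cers1: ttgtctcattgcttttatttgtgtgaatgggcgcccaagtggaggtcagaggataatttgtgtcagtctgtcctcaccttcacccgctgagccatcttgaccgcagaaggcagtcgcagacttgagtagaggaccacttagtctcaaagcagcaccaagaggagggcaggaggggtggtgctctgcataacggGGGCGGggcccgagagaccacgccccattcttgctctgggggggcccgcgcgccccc
The Sptlc2 window held 3 CAAT boxes and 2 GC boxes, and the Cers1 window 1 GC box and none of the other 4. Of 32851 windows of this length in the table, 33.8% hold a CAAT box, 32.7% a GC box, 17.8% the cAMP response site, 12.4% a TATA box and 6.02% an E-box. RefSeq windows were matched for 35 of the 40 genes, and 26 of these (74.3%) hold a GC box, with a median GC content of 63.2% against 52.4% over all windows. The 35 are 1 window per gene, while the 32851 include every listed start of a gene. The sets are thus unlike, and their difference was not tested.

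The 4 genes that use ceramide were not called. These are Ugcg, the glucosylceramide synthase, Sgms1 and Sgms2, the sphingomyelin synthases, and Cerk, the ceramide kinase. Their averaged knock-in changes ran from -0.05 to 0.43 on the log2 scale, the largest being Sgms2, whose 12 libraries spread from 2.73 to 8.30 CPM (edgeR adjusted p = 0.293). Sgms2 rested on 1 library: without WT replicate 1 it passed at 0.97 in HD against WT and 0.75 on average (edgeR adjusted p = 0.0296 and 0.00675).

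Among 6 genes of sphingolipid breakdown edgeR called only Smpd3. Smpd3 encodes neutral sphingomyelinase 2, a membrane enzyme that releases ceramide from sphingomyelin and is abundant in neurons (chr8:106252548-106337988, minus strand). It measured 106, 136 and 158 CPM in WT, 90.1, 75.6 and 61.4 in HD, 148, 131 and 140 in cGAS-KO and 74.3, 85.4 and 88.0 in the double mutants. The 6 knock-in libraries lay below the other 6, with WT replicate 1 nearest to them. Smpd3 fell by 0.82 ± 0.15 on the log2 scale in HD against WT, and by 0.76 ± 0.15 in the double mutants against cGAS-KO (edgeR adjusted p = 0.0105 and 0.015). The first call was lost without WT replicate 3 or HD replicate 2, and in a fit of the compared groups alone (edgeR adjusted p = 0.072). The second was lost without cGAS-KO replicate 1, double-mutant replicate 1 or double-mutant replicate 2. The averaged change of -0.79 ± 0.11 (edgeR adjusted p = 0.000479) passed in all 12 fits that left out 1 library, with edgeR adjusted p at most 0.00276.

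The other 5 breakdown genes had averaged log2 changes between -0.15 and 0.18. They are Smpd1 (lysosomal acid sphingomyelinase), Smpd2 (another neutral sphingomyelinase), Asah1 and Asah2 (acid and neutral ceramidases) and Galc, the lysosomal enzyme that degrades galactosylceramide of myelin. DESeq2's Wald test called Smpd1 higher in the double mutants against cGAS-KO (0.20, adjusted p = 0.0397) and Galc lower on average (-0.16, adjusted p = 0.0487), and Asah2 passed on average without WT replicate 1 (0.23, edgeR adjusted p = 0.037). Per kilobase of exon, Smpd1 and Smpd3 were at near the same WT level, 26.5 ± 1.27 and 25.5 ± 5.00 CPM, which did not differ beyond their spread. Smpd2 was far lower, at 2.25 ± 0.0466 CPM.

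In the sphingosine 1-phosphate branch, Sphk2 rose and the other 3 members were not called. Sphk2, the sphingosine kinase that is mostly nuclear and mitochondrial, measured 21.5, 19.3 and 20.0 CPM in WT, 23.5, 23.3 and 21.6 in HD, 20.0, 19.6 and 21 in cGAS-KO and 23.6, 24.4 and 26.4 in the double mutants. HD replicate 3 exceeded WT replicate 1 by a small margin, and the 2 sets of 6 libraries did not overlap. The averaged log2 change of 0.23 ± 0.06 (edgeR adjusted p = 0.0155) was lost without WT replicate 2 or HD replicate 2, with edgeR adjusted p at most 0.0533. In the double mutants against cGAS-KO Sphk2 passed by DESeq2's Wald test (adjusted p = 0.0102), with the stricter filter and without cGAS-KO replicate 3. Sphk2 shares 13% of its exon bases with the clock gene Dbp on the opposite strand. Dbp changed by -0.83 ± 0.05 in the averaged knock-in effect (edgeR adjusted p = 8.23e-07). The libraries are from a directional kit, but no source used here states the strand setting of the counting.

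All 4 genes of this branch had averaged changes above 0. Sgpl1, the lyase that destroys sphingosine 1-phosphate, and Sgpp1, a phosphatase that returns it to sphingosine, had edgeR adjusted p of at least 0.105. Sgpl1 passed in HD against WT in a fit of the compared groups alone and without cGAS-KO replicate 3 (0.28, edgeR adjusted p = 0.0316), and Sgpp1 passed on average without cGAS-KO replicate 3 (0.24, edgeR adjusted p = 0.0135). Sphk1, the other kinase, was the rarest of the 40 genes, at 16 to 80 counts per library, and its averaged change was 0.41 ± 0.27.

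**Figure D2:**
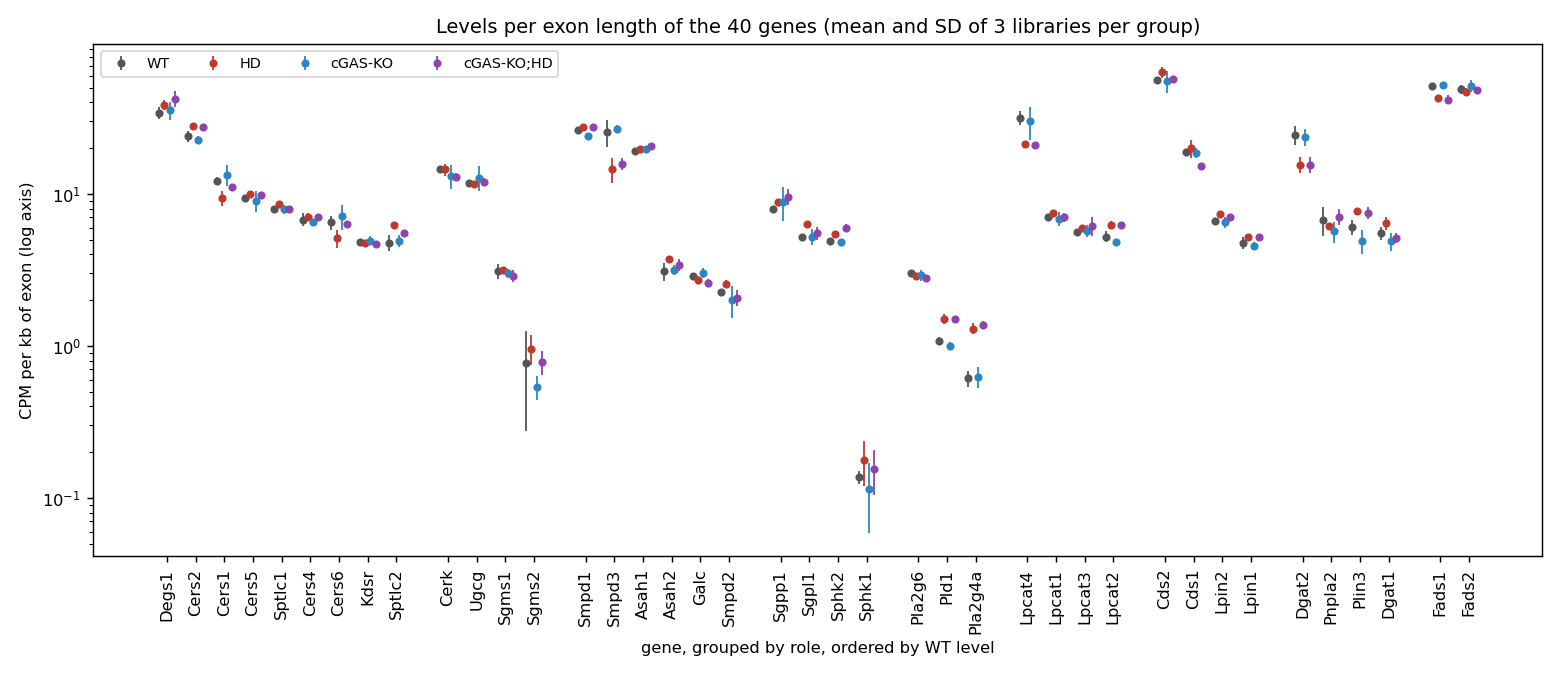
Level of each of the 40 genes as CPM per kilobase of exon (y axis, log scale) in the 4 groups, as the mean and SD of 3 libraries, with genes grouped by role and ordered by WT level (x axis). WT levels run from 0.137 for Sphk1 to 56.4 for Cds2.

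Of the 3 phospholipases, Pla2g4a and Pld1 rose and Pla2g6 was not called. Pla2g4a (chr1:149829618-149961290, minus strand) measured 4.37, 3.94 and 3.43 CPM in WT, 8.18, 9.00 and 7.65 in HD, 4.03, 4.64 and 3.39 in cGAS-KO and 9.34, 8.61 and 8.52 in the double mutants. The knock-in libraries were all well above the others, with no library between 4.64 and 7.65 CPM. Its log2 change was 1.08 ± 0.14 in HD against WT and 1.13 ± 0.14 in the double mutants against cGAS-KO (edgeR adjusted p = 0.00156 and 0.000951). Both calls held in every alternative and every fit without 1 library, with edgeR adjusted p at most 0.0135. The difference between the 2 changes was 0.05, with a 95% interval of -0.41 to 0.52.

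Pld1, the phospholipase that makes phosphatidic acid from phosphatidylcholine (chr3:27938695-28133362, plus strand), measured 15, 13.4 and 13.6 CPM in WT, 18, 19.9 and 20.8 in HD, 13.7, 13.3 and 12.1 in cGAS-KO and 19.7, 19.9 and 18.9 in the double mutants. Again no library without the allele reached the lowest one with it. The log2 changes were 0.48 ± 0.09 and 0.58 ± 0.09 in the pairs with and without cGAS (edgeR adjusted p = 0.0109 and 0.00344). The first was lost without WT replicate 2, WT replicate 3, HD replicate 2 or HD replicate 3, and the second in none of these fits. Pla2g6, the calcium-independent phospholipase, had an averaged change of -0.06 ± 0.06 (edgeR adjusted p = 0.546).

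Per kilobase of exon, Pla2g6 stood at 3.04 ± 0.0852 CPM in WT, above Pld1 at 1.08 ± 0.0699 and Pla2g4a at 0.612 ± 0.0734. The gene with the largest change was thus among the lowest of the 40 in level. Upstream sequences of the pair that rose are printed with the same 5 motifs in capitals (chr1:149961291-149961540, minus strand, and chr3:27938430-27938679, plus strand, RefSeq, GRCm38.p6).
Pla2g4a: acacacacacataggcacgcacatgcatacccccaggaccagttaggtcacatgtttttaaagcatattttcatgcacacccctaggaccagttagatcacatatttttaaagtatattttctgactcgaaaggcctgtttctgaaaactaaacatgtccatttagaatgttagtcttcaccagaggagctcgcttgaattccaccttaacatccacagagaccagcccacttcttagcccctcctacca
Pld1: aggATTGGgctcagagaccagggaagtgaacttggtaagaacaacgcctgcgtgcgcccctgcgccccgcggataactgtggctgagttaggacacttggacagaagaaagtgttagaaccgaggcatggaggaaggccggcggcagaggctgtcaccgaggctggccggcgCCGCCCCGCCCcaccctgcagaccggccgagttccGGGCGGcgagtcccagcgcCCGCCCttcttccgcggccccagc
The Pla2g4a window held none of the 5 motifs and has a GC content of 43.2%. The Pld1 window held 4 GC boxes, of which 1 pair overlaps, and 1 CAAT box, at a GC content of 67.2%. These matches describe the letters only.

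The acyltransferases of the remodelling cycle split. Lpcat4, an acyltransferase of lysophosphatidylethanolamine and lysophosphatidylcholine (chr2:112239468-112247111, plus strand), measured 78.8, 90.9 and 98.4 CPM in WT, 59.7, 60.9 and 58.9 in HD, 73.2, 72.3 and 109 in cGAS-KO and 58.3, 62.1 and 57.5 in the double mutants. The knock-in libraries were tightly grouped and all below the rest, while cGAS-KO replicate 3 stood above the other 2 of its group. Lpcat4 fell by 0.58 ± 0.14 in HD against WT (edgeR adjusted p = 0.0343), changed by -0.52 ± 0.14 in the double mutants against cGAS-KO (edgeR adjusted p = 0.0542) and fell by 0.55 ± 0.10 on average (edgeR adjusted p = 0.00277). The HD call was lost in 7 of the 12 fits without 1 library, and remained without WT replicate 1, any cGAS-KO library or double-mutant replicate 3. The change in the double mutants against cGAS-KO passed by DESeq2's Wald test (adjusted p = 0.00983), with DESeq2 size factors, with the stricter filter, with no filter, and without WT replicate 1 or cGAS-KO replicate 2. Without WT replicate 1 and cGAS-KO replicate 3 it was -0.30 (edgeR adjusted p = 0.00861).

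Lpcat2, which makes platelet-activating factor and phosphatidylcholine and is enriched in microglia (chr8:92855339-92919279, plus strand), measured 19.0, 18.1 and 16.1 CPM in WT, 20.2, 22.6 and 21 in HD, 15.8, 16.3 and 17.3 in cGAS-KO and 20.1, 21.2 and 22.0 in the double mutants. All 6 knock-in libraries were higher than the other 6. The averaged rise was 0.31 ± 0.06 on the log2 scale (edgeR adjusted p = 0.0057). In HD against WT the change was 0.26 ± 0.09 and did not pass (edgeR adjusted p = 0.121). The call in the double mutants against cGAS-KO, 0.36 ± 0.09 (edgeR adjusted p = 0.0373), was lost in 9 of the 12 fits without 1 library, and remained only without WT replicate 1, WT replicate 3 or cGAS-KO replicate 3. It was also lost without the low-count filter and in a fit of the compared groups alone. Genes on the opposite strand overlap 8.47% of the exon bases of Lpcat2, 4.72% of those of Smpd3 and 3.92% of those of Cers2. Lpcat1 and Lpcat3, the other 2 members, were not called and had averaged changes of 0.05 and 0.10.

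None of the 4 genes at the phosphatidate branch point was called by edgeR. Cds1 and Cds2 make CDP-diacylglycerol for phosphatidylinositol and cardiolipin, and Lpin1 and Lpin2 make diacylglycerol for triglycerides and other phospholipids. Cds2 had the highest level per kilobase of all 40 genes in WT, at 56.4 ± 1.61 CPM. Lpin1 came nearest to the threshold, with an averaged change of 0.17 ± 0.05 (edgeR adjusted p = 0.0505). It passed by DESeq2's Wald test and limma-voom (adjusted p = 0.032 and 0.0485), and without WT replicate 1 or cGAS-KO replicate 2.

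Among genes of triglyceride storage, Dgat2 fell and Plin3 rose. Dgat2, an acyltransferase of the last step of triglyceride synthesis (chr7:99153658-99182719, minus strand), measured 64.3, 76.2 and 85.2 CPM in WT, 53.5, 48.6 and 42.0 in HD, 81.3, 74.2 and 63.7 in cGAS-KO and 41.7, 50.5 and 52.5 in the double mutants. Plin3, a coat protein of lipid droplets (chr17:56277476-56292873, minus strand), measured 25.6, 20.3 and 22.7 CPM in WT, 28.6, 31.0 and 28.7 in HD, 20.3, 20.5 and 14.7 in cGAS-KO and 26.2, 27.7 and 31.3 in the double mutants. For both genes the 6 knock-in libraries lay apart from the other 6, for Plin3 by under 1 CPM between WT replicate 1 and double-mutant replicate 1.

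Dgat2 fell by 0.65 ± 0.13 in HD against WT and by 0.60 ± 0.13 in the double mutants against cGAS-KO (edgeR adjusted p = 0.0155 and 0.0229). The first call was lost without WT replicate 2, WT replicate 3, HD replicate 2 or HD replicate 3. The second was lost without cGAS-KO replicate 1, double-mutant replicate 1 or double-mutant replicate 2, and in a fit of the compared groups alone. Plin3 rose by 0.62 ± 0.13 in the double mutants against cGAS-KO (edgeR adjusted p = 0.0186). That call was lost without double-mutant replicate 2 or 3 and in a fit of the compared groups alone (edgeR adjusted p = 0.0924). In HD against WT Plin3 did not pass, at 0.36 ± 0.13 (edgeR adjusted p = 0.14). It passed there without cGAS-KO replicate 3 (edgeR adjusted p = 0.0263). It also passed without both that library and WT replicate 1 (0.44, edgeR adjusted p = 0.00456). Dgat1, the other enzyme of the last step, and Pnpla2, the adipose triglyceride lipase, were not called. Pnpla2 passed in the double mutants against cGAS-KO only without both WT replicate 1 and cGAS-KO replicate 3 (0.42, edgeR adjusted p = 0.0392). Per kilobase of exon, Dgat2 stood above Dgat1 in WT, at 24.4 ± 3.40 against 5.53 ± 0.522 CPM.

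Of the fatty acid desaturases, Fads1 fell and Fads2 was not called. Both act in the pathway that makes arachidonic and docosahexaenoic acid from dietary precursors. Fads1, the delta-5 desaturase (chr19:10182888-10196877, plus strand), measured 253, 245 and 240 CPM in WT, 212, 202 and 203 in HD, 243, 244 and 265 in cGAS-KO and 195, 191 and 217 in the double mutants. The highest knock-in library was well under the lowest of the others. Fads1 fell by 0.32 ± 0.07 in the double mutants against cGAS-KO (edgeR adjusted p = 0.024). This call was lost without cGAS-KO replicate 1, double-mutant replicate 1 or double-mutant replicate 2. It was also lost in a fit of the compared groups alone (edgeR adjusted p = 0.11). Fads1 changed by -0.26 ± 0.07 in HD against WT (edgeR adjusted p = 0.0623). The change in HD against WT passed by DESeq2's Wald test (adjusted p = 0.00493), with the stricter filter and in a fit of the compared groups alone. It also passed without cGAS-KO replicate 3 or double-mutant replicate 3. The averaged fall was 0.29 ± 0.05 (edgeR adjusted p = 0.00239). Both desaturases were abundant, at 51.1 ± 1.35 and 48.9 ± 3.59 CPM per kilobase in WT, a difference within their spread.

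The knock-in changes with and without cGAS used separate libraries and could be set side by side. Of the 40 genes, 37 (92.5%) had the same sign in both, against 70.9% of all genes, and the correlation of the 2 changes was 0.911 over the 40 genes against 0.609 over all genes, as a description. The genes called in both were Pla2g4a, Pld1, Smpd3 and Dgat2, which is 66.7% of the 6 called with cGAS and 57.1% of the 7 called without it. Over all genes these shares were 57.6% and 59.7%. For 11 of the 40 genes (27.5%) the 6 knock-in libraries did not overlap the 6 others, 6 higher and 5 lower, against 7.49% of all genes. Those 11 were the called genes other than Cers2. Within single pairs, the libraries of both groups did not overlap for 22 of the 40 genes in HD against WT (27.7% of all genes) and 17 in the double mutants against cGAS-KO (21.5% of all genes). For cGAS loss these counts were 8 in the double mutants against HD (17.1% of all genes) and 1 in cGAS-KO against WT (8.79% of all genes).

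**Figure D3:**
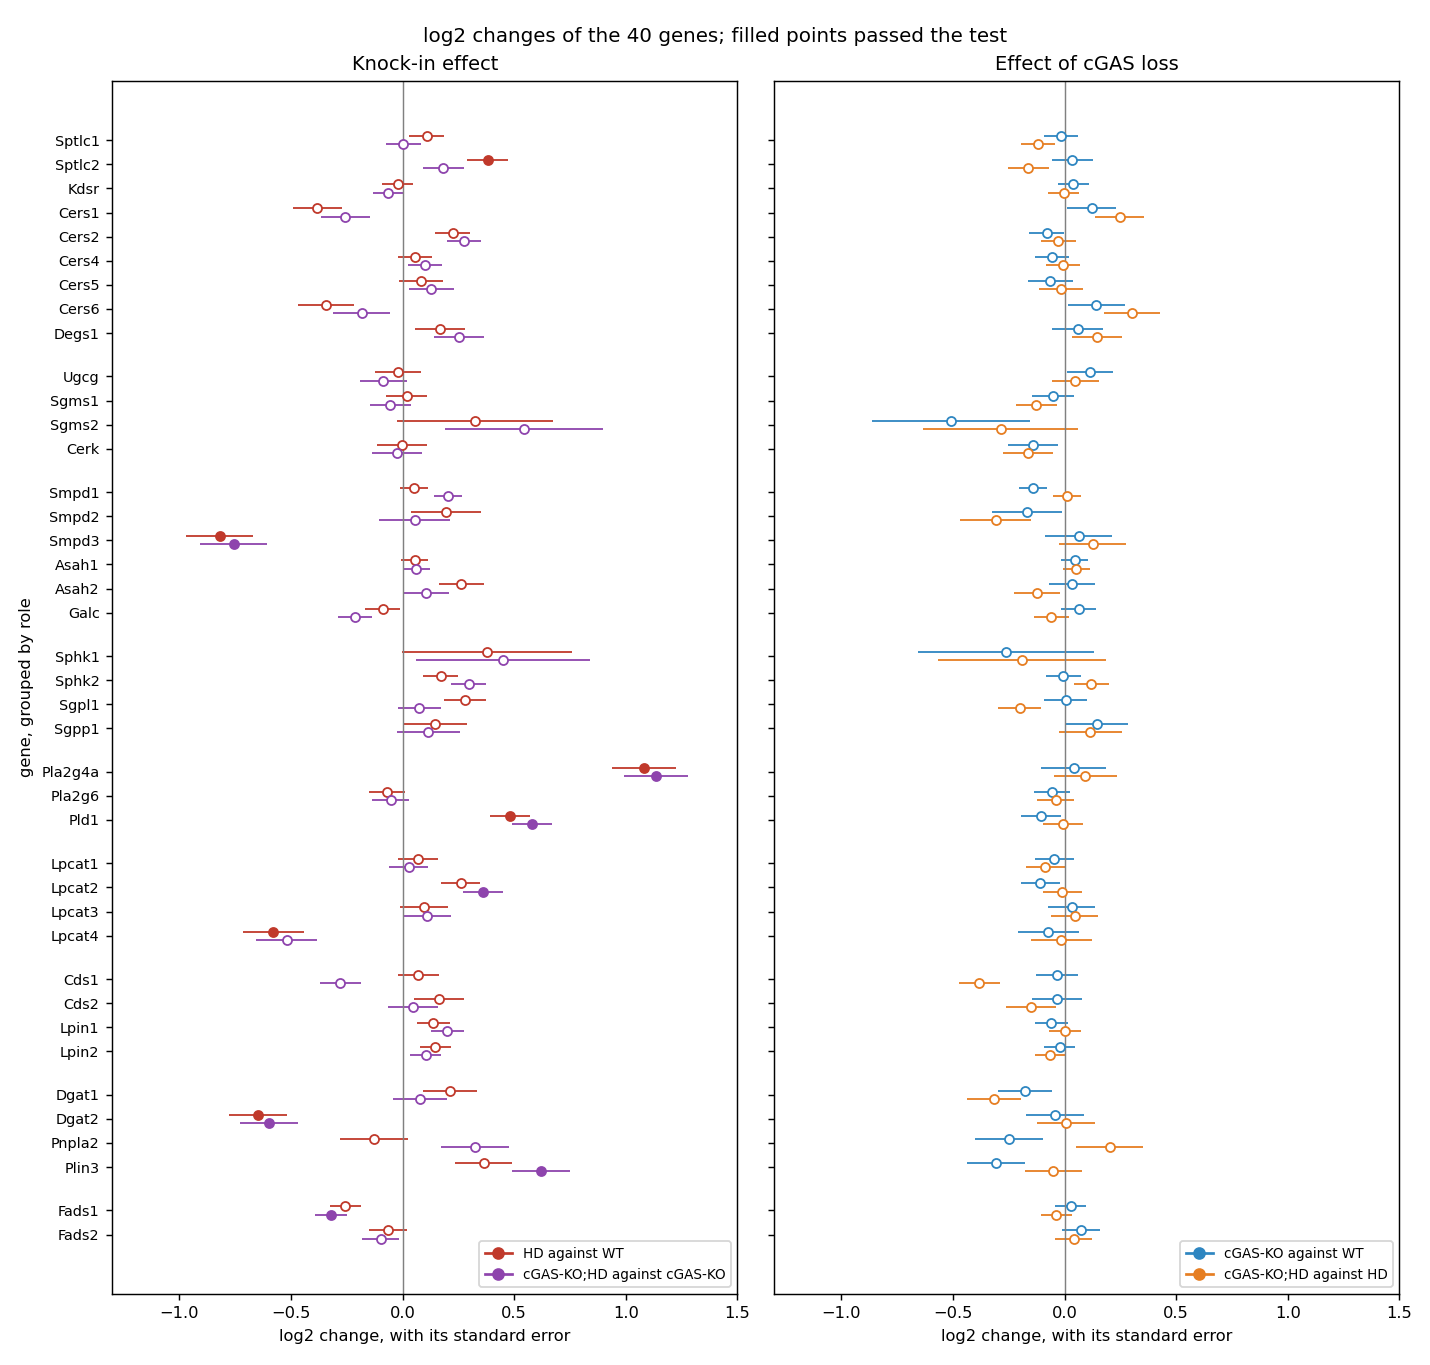
log2 change (x axes) with its standard error for each of the 40 genes, grouped by role (y axis), for the knock-in effect with and without cGAS (left) and for cGAS loss without and with the knock-in allele (right), where filled points passed the test. In the left panel 13 points are filled, 6 for HD against WT and 7 for the double mutants against cGAS-KO, and in the right panel none.

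Loss of cGAS was followed in the same genes. In cGAS-KO against WT 0 of the 40 were called, against 0% of all genes, and in the double mutants against HD 0 of 40, against 0.00469% of all genes. At an unadjusted p under 0.05, edgeR gave 2 of the 40 in the first (Smpd1, Plin3) and 4 in the second (Cers1, Cers6, Cds1, Dgat1), beside 4.28% and 5.78% of all genes. DESeq2's Wald test and limma-voom also called 0 of the 40 in both. Averaged over the pairs with and without the knock-in allele, cGAS loss gave 0 calls against 0% of all genes, with 4 genes at an unadjusted p under 0.05 (8.63% of all genes) and 0 calls by the other tools. Of the 40 intervals (95%) of the averaged change, 38 lay within 1.5-fold in either direction, and those of Sgms2 and Sphk1 did not.

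Plin3 had the smallest p in cGAS-KO against WT, at -0.31 ± 0.13 (edgeR adjusted p = 0.919). The value was -0.16 without cGAS-KO replicate 3 and -0.08 without that library and WT replicate 1. Cds1 had the smallest p in the double mutants against HD, at -0.38 ± 0.09 (edgeR adjusted p = 0.757). Cds1 measured 72.4, 77.7 and 74.8 CPM in WT, 67.7, 79.6 and 88.9 in HD, 67.0, 73.9 and 78.8 in cGAS-KO and 61.0, 59.5 and 60.6 in the double mutants. All double-mutant libraries were below all 9 others, yet this difference did not pass over all genes.

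Whether the knock-in effect differed with and without cGAS was tested by the interaction. None of the 40 passed, against 0.00469% of all genes, with 1 gene (Cds1) at an unadjusted p under 0.05 by edgeR (2.84% of all genes) and 0 calls by DESeq2's Wald test and limma-voom. The interaction of Cds1 was -0.35 ± 0.13 (edgeR adjusted p = 1). For 34 of the 40 the 95% interval lay within 1.5-fold, the others being Sgms2, Smpd2, Sphk1, Cds1, Pnpla2 and Plin3. The 12 genes called for the knock-in allele thus had no detectable difference in their knock-in change at this number of animals, and for Plin3 the interval ran from -0.16 to 0.67.

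Other genes of the same pathways were counted beside the 40. Of 162 other genes of sphingolipid, glycerolipid and fatty acid chain metabolism, 157 were tested, and 1 rose and 3 fell in HD against WT, or 2.55% against 4.1% of all genes. In the double mutants against cGAS-KO 1 rose and 1 fell, or 1.27% against 3.96%, and in the averaged effect 11 rose and 16 fell, or 17.2% against 13.2% of all genes. Over all 12 libraries edgeR called none for cGAS loss or the interaction. At an unadjusted p under 0.05 it gave 7 in cGAS-KO against WT, 14 in the double mutants against HD and 6 for the interaction. DESeq2's Wald test called 1 in cGAS-KO against WT. Without both WT replicate 1 and cGAS-KO replicate 3, edgeR called 1 in cGAS-KO against WT and 1 for the interaction. Calls over all genes in that setting were 38 and 105 in the same order, beside 0 and 1 over all 12 libraries.

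In the sphingolipid list (5 rose and 8 fell of 53, averaged effect), the falls included Fa2h, the hydroxylase of myelin sphingolipids, at -0.28 ± 0.06, and St8sia3, a sialyltransferase of neuronal gangliosides, at -0.48 ± 0.11 (edgeR adjusted p = 0.0104 and 0.0102). Plpp3, a phosphatase of bioactive lipid phosphates, changed by -0.25 ± 0.06, and S1pr5, the sphingosine 1-phosphate receptor of oligodendrocytes, by 0.33 ± 0.08 (edgeR adjusted p = 0.0105 and 0.0122). Col4a3bp, the ceramide transfer protein, rose by 0.22 ± 0.06 in HD against WT (edgeR adjusted p = 0.0474). In the double mutants against cGAS-KO, Gltp, a glycolipid transfer protein, rose by 0.41 ± 0.10 and Ugt8a, which makes galactosylceramide, fell by 0.31 ± 0.08 (edgeR adjusted p = 0.0437 and 0.044).

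In the glycerolipid list (3 rose and 8 fell of 80), Mgll and Dagla, which degrade and make the endocannabinoid 2-arachidonoylglycerol, both fell. Mgll measured 116, 158 and 181 CPM in WT, 106, 108 and 99.6 in HD, 152, 126 and 153 in cGAS-KO and 95.3, 111 and 110 in the double mutants. The averaged changes were -0.49 ± 0.10 for Mgll and -0.41 ± 0.09 for Dagla (edgeR adjusted p = 0.00563 and 0.0098). Chpt1, of phosphatidylcholine synthesis, rose by 0.25 ± 0.06, and Selenoi, of phosphatidylethanolamine synthesis, fell by 0.24 ± 0.06 (edgeR adjusted p = 0.00999 and 0.0228). In the chain list (3 rose and 0 fell of 24), the rises were Hacd4, of fatty acid elongation, at 0.75 ± 0.19, the desaturase Scd3 at 0.36 ± 0.09 and Hsd17b12, also of elongation, at 0.22 ± 0.07 (edgeR adjusted p = 0.0213, 0.0243 and 0.0427).

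Markers of several cell types differed between the same groups. Medium spiny neuron markers (17 genes, summed CPM) ran from 4960 to 7030 in WT, 1740 to 3140 in HD, 6210 to 7540 in cGAS-KO and 2690 to 2790 in the double mutants, and all 17 fell in the averaged effect. Astrocyte markers (12 genes) were at 4610 to 4910 in WT, 3680 to 3730 in HD, 4440 to 5080 in cGAS-KO and 3750 to 4030 in the double mutants, with 1 risen and 3 fallen. Oligodendrocyte precursor markers (8 genes) were at 215 to 246, 271 to 275, 214 to 230 and 280 to 293 in the same order, with 4 risen. These 3 sums were apart between libraries with and without the allele. Averaged over its 12 genes on a log2 scale, the astrocyte list overlapped, with WT replicate 3 at 7.466 and HD replicate 3 at 7.496. The median averaged log2 change of the 12 was -0.10.

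Oligodendrocyte markers (15 genes) overlapped, at 10700 to 13000 in WT, 10000 to 10800 in HD, 9470 to 11700 in cGAS-KO and 9500 to 10100 in the double mutants, with 3 risen and 7 fallen. Microglia markers (12 genes) ran from 415 to 540 in WT, 415 to 470 in HD, 402 to 420 in cGAS-KO and 444 to 491 in the double mutants, with 1 risen. Cortical neuron markers (10 genes) ran from 265 to 1020 in WT, 234 to 287 in HD, 324 to 1450 in cGAS-KO and 293 to 455 in the double mutants. Their median log2 change was -1.87 in HD against WT, -1.15 in the double mutants against cGAS-KO and -1.51 on average, with 1 fallen. Medium spiny neuron markers also had negative medians, at -1.29, -1.22 and -1.26 in the same order. The part of either neuron type in the falls of Smpd3, Lpcat4 and Cers1 was not tested. Endothelial markers (9 genes) were at 104 to 111, 76.9 to 98.1, 84.2 to 99.4 and 49.5 to 83.2 in the order WT, HD, cGAS-KO and double mutants, with 2 fallen on average, and erythrocyte markers (5 genes) at 58.2 to 104, 36.5 to 59.3, 55.6 to 77.2 and 54.1 to 87.9, also with 2 fallen. Thalamus and septum markers (7 genes) ran from 329 to 783 in WT and 615 to 1140 in HD. They ran from 294 to 796 in cGAS-KO and 441 to 628 in the double mutants. Their median log2 change was 0.91 in HD against WT, 0.15 in the double mutants against cGAS-KO and 0.31 on average, with 0 called. In each group the library highest in these markers was highest in Sptlc2, and their part in its change was not tested. No marker of these lists was at 0 in any library. Fewer cells of a type and less RNA per cell cannot be told apart in these bulk libraries, and the part of cell composition in the changes of the 40 genes was not tested.

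**Figure D4:**
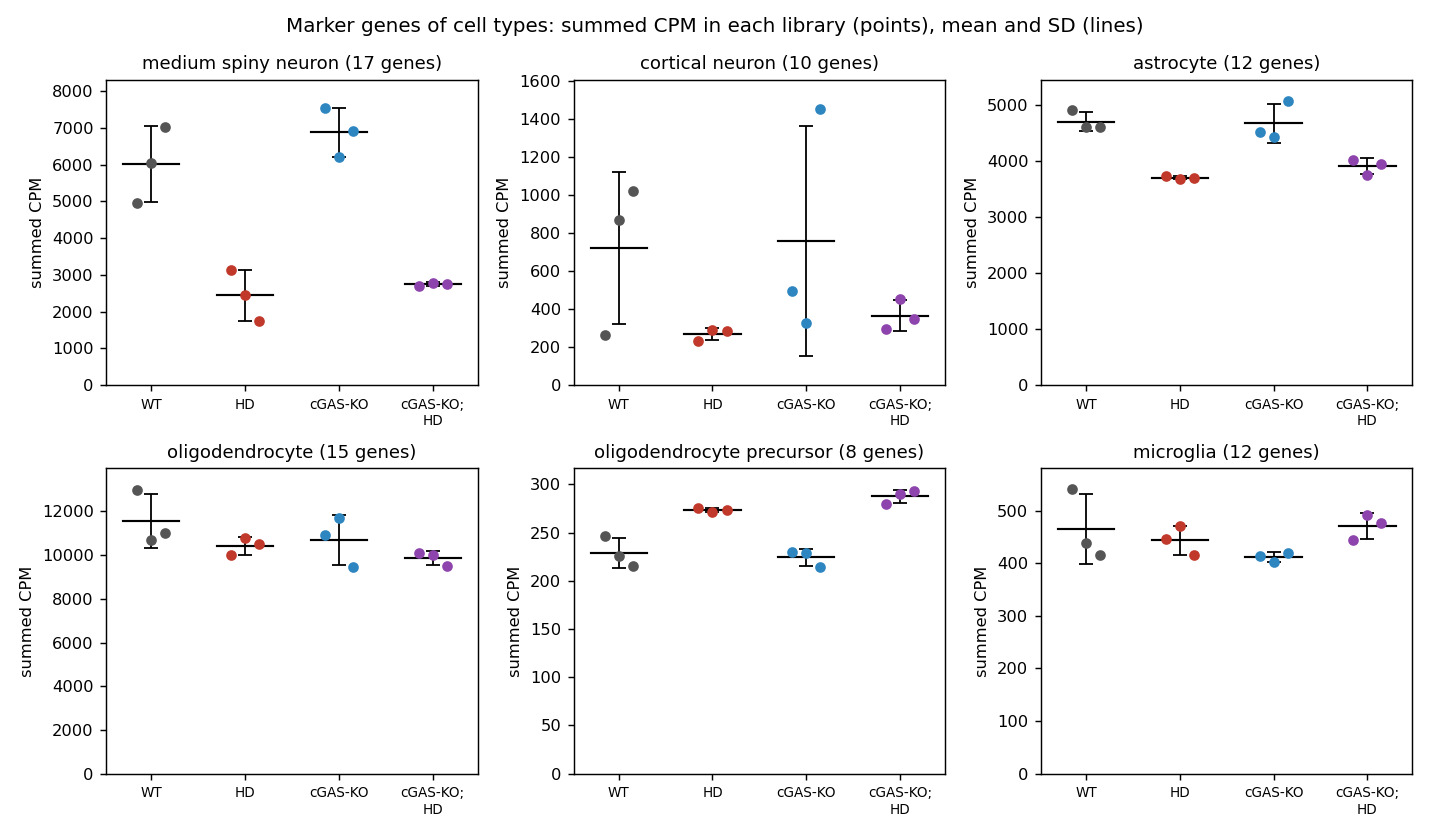
Summed CPM of marker genes (y axes, from 0) for 6 cell types in each library (points) of the 4 groups (x axes), with the mean and SD of 3 libraries as lines. Medium spiny neuron markers reach at most 3140 in the 6 knock-in libraries and at least 4960 in the other 6, while oligodendrocyte and microglia markers overlap.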

How the data were processed

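The authors deposited 1 table per library of whole-number counts per Ensembl gene, made with a directional kit from poly(A)-selected RNA according to the protocols. No source used here names the aligner, annotation, build or strand setting. Symbols and coordinates were taken from GENCODE M21 (GRCm38). Groups and replicate numbers came from the sample titles, which describe 3 mice per group. Genes were kept with edgeR's filterByExpr (minimum count 10, minimum total 15), scaled by TMM, and tested by the robust quasi-likelihood model over all 12 libraries, with 1 mean per group, 8 residual degrees of freedom and no covariate. Adjustment was by Benjamini-Hochberg over 21309 genes, with calls under 0.05. Intervals used the residual degrees of freedom. CPM per kilobase used the union of a gene's exons, which includes rare isoforms. The 7 comparisons were the 4 pairs, their interaction and both averaged effects. Errors of log2 changes are standard errors.

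The members and lists were chosen with earlier results of these data known. The genes named are every member called anywhere, the member of smallest p where none was called, and up to 4 called genes by p of each other pathway list. Cers6, Degs1, Sgms2, Lpin1 and other uncalled members were named after their values were seen, as were Dbp and Gdf1, for their overlap. The scripts were tested on simulated data. The tests were repeated with limma-voom, with the Wald test of DESeq2, with its size factors, without the low-count filter, with a minimum of 1 CPM in 3 libraries, on the compared groups alone, with a replicate block, with each library left out and, after seeing the data, WT replicate 1 and cGAS-KO replicate 3 left out together. Depth was 59195327 to 72765623 counts per library. The software was edgeR 4.0.16, DESeq2 1.42.0 and limma 3.58.1 under R 4.3.3.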

Additional observations from a re-analysis of the deposited data

How the results depend on the processing

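Of 566 recomputed values of genes called, or of smallest p where none was, 509 kept their direction and their side of the threshold, 57 no longer passed and 0 changed sign. Calls gained are not in that tally: of the 28 genes not called anywhere, 9 passed with another tool, in a fit of the compared groups alone or without 1 library (Asah2, Cers6, Degs1, Galc, Lpin1, Sgms2, Sgpl1, Sgpp1 and Smpd1). In HD against WT (3 higher and 3 lower), leaving out 1 library gave 1 to 5 higher and 0 to 6 lower, DESeq2's Wald test and the stricter filter each gave 5 lower, and leaving out WT replicate 1 and cGAS-KO replicate 3 together, chosen after seeing the data, gave 10 higher and 6 lower. In the double mutants against cGAS-KO (4 higher and 3 lower), 1 library left out gave 2 to 6 higher and 0 to 4 lower, DESeq2's Wald test 7 higher, the compared groups alone 2 higher and 1 lower, and the added setting 9 higher. In the averaged knock-in effect (7 higher and 5 lower), 1 library left out gave 6 to 10 higher and 5 to 6 lower, and the added setting 12 higher. In cGAS-KO against WT the added setting gave 1 lower, Lpcat4, at -0.38 (edgeR adjusted p = 0.0433). The cause was not tested. Counts over all genes ran from 247 to 3589 in HD against WT (873), from 321 to 1805 in the double mutants against cGAS-KO (843) and from 1784 to 4595 in the averaged effect (2816).

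Of 18 correlations between same-numbered libraries of different groups, from -0.358 to 0.335, 2 were above 0.1. Libraries with different numbers were not correlated, so these values have no reference and cannot decide whether the numbers pair the libraries. With the replicate block, 2 of the 40 were called higher and 3 lower in HD against WT, 3 higher and 2 lower in the double mutants against cGAS-KO, and 7 higher and 5 lower in the averaged effect, with calls lost for Sptlc2 in the first and for Lpcat2 and Dgat2 in the second, and 507 of all genes were called in HD against WT. At 16 to 80 counts per library, the change of Sphk1 was not detectable.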

Other observations

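Sgms2, a sphingomyelin synthase that was not called, measured 8.30, 3.24 and 2.79 CPM in WT, 4.75, 7.41 and 5.80 in HD, 3.41, 3.94 and 2.73 in cGAS-KO and 5.28, 5.53 and 3.90 in the double mutants. Choroid plexus markers (8 genes, summed CPM) were at 3260, 521 and 426 in WT, 1730, 3360 and 784 in HD, 1560, 1640 and 646 in cGAS-KO and 1910, 2060 and 528 in the double mutants. In each group the library highest in one was highest in the other, and the part of choroid plexus tissue in the Sgms2 counts was not tested. Without WT replicate 1 and cGAS-KO replicate 3, Sgms2 was called higher in HD against WT, at 0.98 (edgeR adjusted p = 0.00522).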
